A study of Homo sapiens with 6 samples.

Results

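RNA interference genes were followed in MDA-MB-436, a cell line from a triple-negative breast cancer with mutant BRCA1, with and without induction of an shRNA against MUC1. The group was defined by gene symbol as AGO1, AGO2, AGO3, AGO4, DICER1, DROSHA, DGCR8, XPO5, TARBP2 and TNRC6A, which is 10 of the 37887 rows of the count table. All 10 passed the low-count filter and were among the 15355 genes tested. No expression value was used to choose them.

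All 6 libraries came from cells stably carrying a tetracycline-inducible MUC1 shRNA. The 3 control libraries were from cells given 0.1% DMSO vehicle, and the 3 shMUC1 libraries were from cells given 500 ng/ml doxycycline, which switches on the shRNA. Titles of the control samples name a control shRNA, but their treatment label and the series design describe vehicle on the same inducible cells, and this reading was used. Doxycycline and the shRNA were always present together, and no other shRNA was induced. The drug, the production of any shRNA, effects of this shRNA on other messages and the loss of MUC1 therefore cannot be told apart. The line is a single cell line, and the labels give no length of treatment for it. Cells were described as cultured in triplicate, without saying whether cultures were handled separately. The p-values therefore rest on the spread between these 3 libraries a group, which edgeR fits with the help of all genes. They may not cover the spread between separate cultures.

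Small RNAs silence messages in a series of steps. In the nucleus the microprocessor (DROSHA, a nuclease, with its RNA-binding partner DGCR8) cuts hairpins from primary microRNA transcripts, and XPO5 carries the hairpins to the cytoplasm. There DICER1, with TARBP2, cuts them to short duplexes, and an Argonaute protein holds one strand as a guide. Argonaute recruits GW182 proteins such as TNRC6A, which bring in enzymes that shorten the poly(A) tail and remove the cap. An expressed shRNA of the kind used here enters the same route as a hairpin that XPO5 exports and DICER1 cuts.

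Libraries held from 18678307 to 27825546 counts. MUC1, the target, was at 4.24, 3.45 and 3.95 CPM (counts scaled to library size) in control and at 2.61, 1.98 and 1.83 CPM in shMUC1 libraries. Its groups did not overlap, with a log2 fold change of -0.84 (SE 0.214, edgeR adjusted p = 0.00119), on at most 102 counts a library and with 48 exon bases shared with a neighbouring gene on the same strand. As markers of this mesenchymal-like, receptor-negative line, VIM was at 395 CPM or more and ZEB1 at 17.3 CPM or more in every library, and ESR1 and PGR were at 0.645 CPM or less. ERBB2 ranged from 38.4 to 47.4 CPM, so its message was present and does not show a receptor-negative state. The mean of VIM was 718 CPM in control and 417 CPM in shMUC1 cells, that of ZEB1 was 35.1 and 17.9 CPM, and that of EPCAM, an epithelial adhesion protein, was 3.28 and 14.3 CPM. The share of counts on mitochondrially encoded genes was 3.35% to 4.17% in control and 4.94% to 5.22% in shMUC1 libraries, and the calls on the 10 genes below were the same in number and direction with those genes left out of the fit. The part of the VIM, ZEB1 and EPCAM differences in them was not tested.

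Of the 10 RNA interference genes, 1 rose (DICER1), 6 fell (DROSHA, XPO5, AGO2, AGO3, AGO4 and TNRC6A) and 3 did not pass the test (AGO1, DGCR8 and TARBP2), at an adjusted p under 0.05 by edgeR's quasi-likelihood test. Over all tested genes 48.7% passed this test, with 25.2% higher and 23.6% lower in shMUC1 cells. The share of the 10 genes that was lower, 6 of 10, therefore stands above that of all genes and the share that was higher stands below it, as counts with no test of the list. Calls also depend on depth, and all tested genes are not a baseline of like depth. The genes that passed had mean counts above those of 70.3% (AGO4) to 99.3% (AGO2) of tested genes. Of those that did not pass, AGO1 was above 96.2%, DGCR8 above 53.7% and TARBP2 above 43.2%. The median log2 fold change was -0.28 over the 10 genes and 0.00058 over all tested genes. None of the 10 passed a fold change over 2 as well, a rule that 5.95% of all tested genes met, 2.21% of them as higher. With a fold change over 1.5 it was met by 1 gene, DICER1, in the higher direction, as by 5.51% of all tested genes. Groups did not overlap in CPM for the same 7 genes, 1 higher and 6 lower, against 54.8% of all tested genes, of which 28.1% were higher and 26.8% lower.

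**Figure D1:**
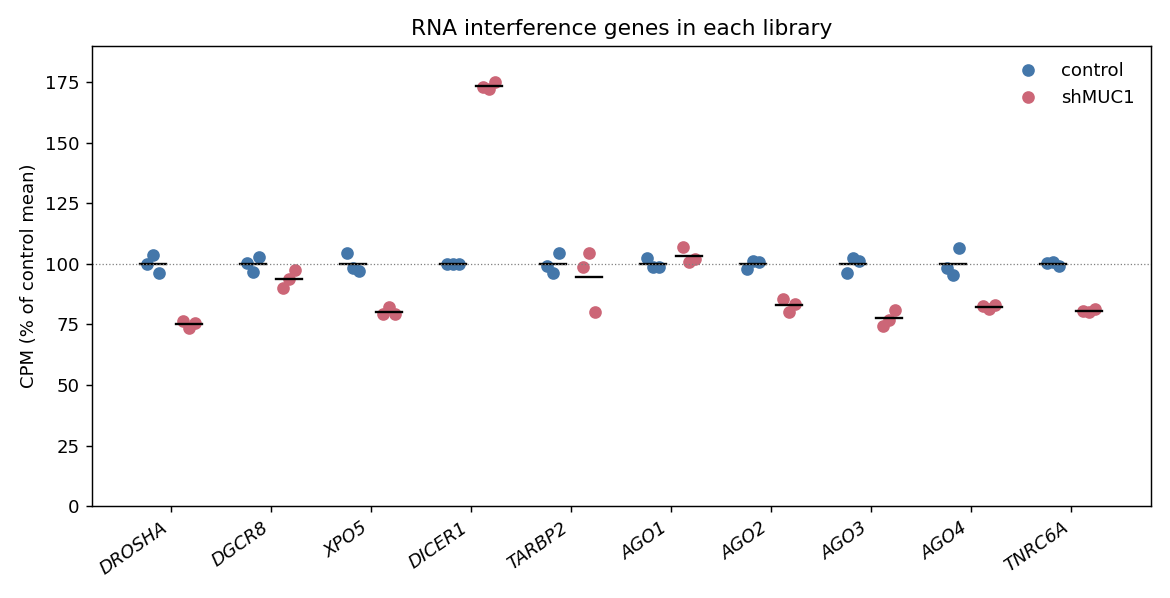
Each point is 1 library, with its CPM given as a percentage of the control mean of that gene (vertical axis, from 0), for control (blue) and shMUC1 (red) libraries; black lines are group means. DICER1 stands at 172% to 175% of the control mean in shMUC1 libraries, and the 6 genes that fell lie between 73.7% and 85.3%.

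The microprocessor and export steps were examined first. DROSHA, at chr5:31400497-31532196 on the minus strand of GRCh38, was at 232, 241 and 224 CPM in control libraries and at 177, 171 and 175 CPM in shMUC1 libraries. Every shMUC1 library lay below every control library. DROSHA fell by 0.41 on the log2 scale (SE 0.0363, edgeR adjusted p = 4.62e-12), the largest fall among the 10 genes, to 0.752 of the control level.

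DGCR8, at chr22:20080232-20111877 on the plus strand, is the partner that recognizes the hairpin. It was at 23.0, 22.1 and 23.6 CPM in control and at 20.7, 21.4 and 22.4 CPM in shMUC1 libraries. The groups overlapped, since the highest shMUC1 library passed the lowest control library. Its log2 fold change was -0.09 (95% interval -0.26 to 0.07, edgeR adjusted p = 0.348), an interval that takes in 0 and does not reach the fall of DROSHA. The log2 ratio of DROSHA to DGCR8 was 3.33, 3.45 and 3.25 in control and 3.10, 2.997 and 2.97 in shMUC1 libraries, a difference of -0.32 between group means. By an exact permutation test (two-sided) p was 0.1, and 3 against 3 libraries can give no smaller value. DGCR8 shares 526 exon bases with AC006547.2 and 12 with TRMT2A, both on the opposite strand. TRMT2A had from 281 to 494 counts a library beside 416 to 609 for DGCR8.

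The DGCR8 message itself holds microprocessor hairpins, a known feature by which DROSHA can cut it. The mature microRNAs of those hairpins lie within DGCR8 exons and are shown with the seed, bases 2 to 8, in capitals, because they mark where this message is a substrate of its own protein (RefSeq, GRCh38.p14).
miR-3618, chr22:20085797-20085818: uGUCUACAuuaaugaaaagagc
miR-1306-5p, chr22:20086072-20086093: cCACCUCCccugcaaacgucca
miR-1306-3p, chr22:20086112-20086129: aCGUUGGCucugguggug
The hairpin genes MIR3618 and MIR1306, which share their bases with DGCR8 on the same strand, had 0 counts in every library. A read there fits DGCR8 as well, so the 0 counts set no limit on their level. Mature microRNAs are not measured by poly(A) libraries.

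XPO5, at chr6:43522330-43576075 on the minus strand, exports precursor hairpins to the cytoplasm. Its level was 143, 135 and 133 CPM in control and 109, 113 and 109 CPM in shMUC1 libraries, with no overlap. XPO5 fell by 0.31 on the log2 scale (SE 0.0407, edgeR adjusted p = 3.5e-08). It shares 348 exon bases with POLR1C on the opposite strand, which had from 452 to 757 counts against 2025 to 3438 for XPO5. The sources used here do not say whether strand was used in counting.

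DICER1 was the 1 gene that rose. It was at 87.8, 87.8 and 87.8 CPM in control libraries and at 152, 151 and 154 CPM in shMUC1 libraries. The groups were far apart, and libraries within a group were close together, with a coefficient of variation of 0.0269% in control. That is below the counting error of a single library, which was between 1.54% (an shMUC1 library) and 2.28% (a control library) over all 6 libraries. The control spread is smaller than counting alone would give and is no guide to the error of this gene, and its test used the spread that edgeR fits across all genes. DICER1 rose by 0.79 on the log2 scale (SE 0.0395, 95% interval 0.71 to 0.87, edgeR adjusted p = 5.54e-19), a fold change of 1.73. Of all tested genes, 89.5% changed less in either direction. The gene lies at chr14:95086228-95158010 on the minus strand and shares 80 exon bases with DICER1-AS1 on the opposite strand, which had from 12 to 34 counts a library against 1925 to 4197 for DICER1.

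DICER1 is a well-known target of the miR-103/107 family, whose members share a seed, and of let-7. These microRNAs are shown for that reason, with the seed in capitals (RefSeq, GRCh38.p14). The choice of these families was made with the rise of DICER1 known.
miR-103a-3p, chr5:168560904-168560926: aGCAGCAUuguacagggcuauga
miR-107, chr10:89592756-89592778: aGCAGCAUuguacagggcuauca
let-7a-5p, chr9:94175962-94175983: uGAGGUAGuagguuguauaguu
let-7b-5p, chr22:46113691-46113712: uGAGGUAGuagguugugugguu
The longest annotated 3′ UTR of DICER1, of 4270 bases (GENCODE release 29), held the word ATGCTGC, the match to the miR-103/107 seed, 5 times on the message strand. The stretches around it are given 5′ to 3′ on the minus strand, that of the message, with the word in capitals (GRCh38).
DICER1 site 1, chr14:95089448-95089474: cacctaaaatATGCTGCagattttata
DICER1 site 2, chr14:95088847-95088873: gcttcgtggaATGCTGCatttatatgt
DICER1 site 3, chr14:95087643-95087669: agtcctaactATGCTGCgttttataat
DICER1 site 4, chr14:95086372-95086398: ttaccatcacATGCTGCagctgttttt
DICER1 site 5, chr14:95086320-95086346: tacagtaatcATGCTGCagaaatttgc

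Of 1350 tested genes whose 3′ UTR was within 20% of that length, 28.4% held ATGCTGC at least once and 0.222% held it at least 5 times. Among the other 9 genes, the word stood 5 times in AGO2, 3 times in AGO1, 2 times in AGO4 and 1 time in AGO3. It was not found in DROSHA, DGCR8, XPO5, TARBP2 or TNRC6A. Of tested genes with UTRs of like length, 1.45% held at least as many for AGO2, 5.35% for AGO1, 4.99% for AGO4 and 69.8% for AGO3. In all, 5 of the 10 genes held the word, against 14.6% of 13023 tested genes with an annotated 3′ UTR of any length. Among the genes that held it, DICER1 rose, AGO2, AGO3 and AGO4 fell, and AGO1 did not pass the test. The part of the word in these changes was not tested. CTACCTC, the match to the let-7 seed, was found in AGO1, AGO2, AGO3 and TARBP2 and not in the 3′ UTR of DICER1. These are 4 of the 10 genes, against 11.4% of the 13023. Of tested genes with UTRs of like length, 47.6% held CTACCTC for AGO1, 49.3% for AGO2, 51.2% for AGO3 and 3.16% for TARBP2. Coding sequences were not searched, so any let-7 site of DICER1 outside the 3′ UTR would be missed. These matches are descriptions of the annotated sequence, and microRNA levels were not measured.

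TARBP2, at chr12:53500921-53506431 on the plus strand, is the RNA-binding partner of DICER1. It was at 12.9, 12.5 and 13.6 CPM in control and at 12.9, 13.6 and 10.4 CPM in shMUC1 libraries. The groups overlapped, with shMUC1 replicate 3 below the other 5 libraries. Its log2 fold change was -0.07 (95% interval -0.29 to 0.15, edgeR adjusted p = 0.615), and without shMUC1 replicate 3 it was 0.03. It shares 16 exon bases with AC023509.4 on the opposite strand. With from 194 to 355 counts a library it had the fewest counts of the 10 genes.

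The log2 ratio of DICER1 to TARBP2 was 2.77, 2.81 and 2.69 in control and 3.56, 3.48 and 3.88 in shMUC1 libraries. The log2 ratio of XPO5 to DICER1 went from 0.70, 0.62 and 0.60 to -0.48, -0.42 and -0.50, so the balance of the export and dicing genes shifted by -1.11 between group means. Both ratios were separated between groups. For XPO5 to DICER1 this was fixed in advance, since XPO5 was lower and DICER1 higher in every shMUC1 library, so its test adds nothing to the single genes. In all, 6 ratios were compared, and each had p = 0.1 by the exact permutation test (two-sided), which cannot go lower here, and 0.1 after Benjamini-Hochberg adjustment.

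**Figure D2:**
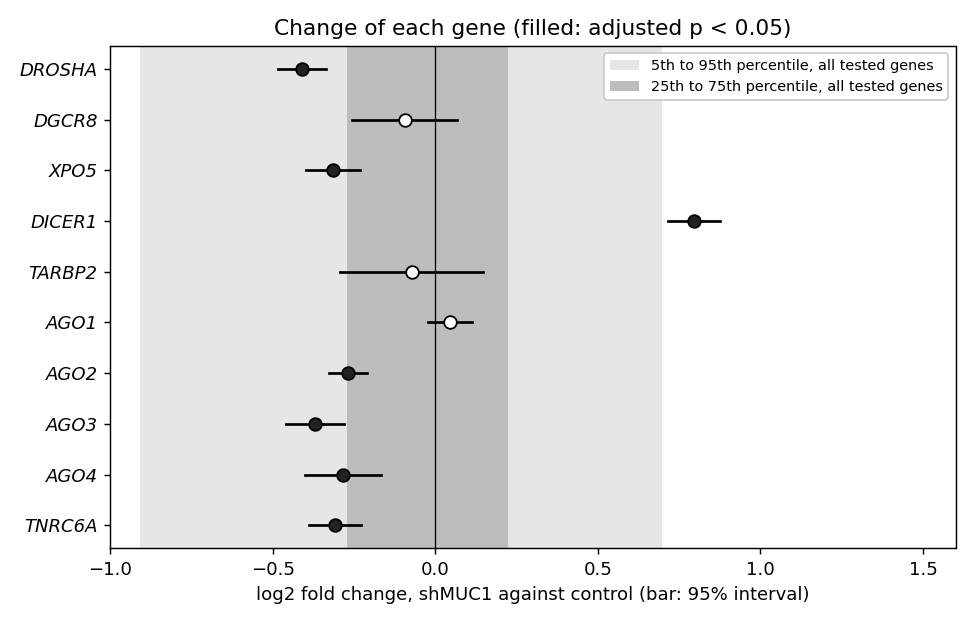
Points are log2 fold changes of shMUC1 against control (horizontal axis) with 95% intervals from edgeR, filled where the adjusted p was under 0.05; grey bands give the 5th to 95th (light) and 25th to 75th (dark) percentiles of all 15355 tested genes. DICER1, at 0.79, is the one gene outside the light band, which ends at 0.70.

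The Argonautes are the proteins that carry the guide strand, and of the 4, AGO2 is the one best known for cutting a fully matched target, the activity an shRNA relies on. AGO2, at chr8:140520156-140635619 on the minus strand, was at 808, 835 and 832 CPM in control and at 704, 662 and 688 CPM in shMUC1 libraries. The groups did not overlap. AGO2 fell by 0.27 on the log2 scale (SE 0.0294, edgeR adjusted p = 8.62e-10), to 0.83 of the control level. Of all tested genes 53.4% changed less, so the fall is precise but of ordinary size in this comparison.

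AGO1, AGO3 and AGO4 are neighbours on the plus strand of chromosome 1, with AGO4 at chr1:35808172-35857890, AGO1 at chr1:35869808-35930528 and AGO3 at chr1:35930718-36072500. AGO4 was at 53.6, 52.0 and 58.2 CPM in control and at 45.2, 44.3 and 45.3 CPM in shMUC1 libraries. AGO3 was at 109, 116 and 114 CPM in control and at 84.5, 87.1 and 92.1 CPM in shMUC1 libraries. Both genes were lower in every shMUC1 library than in any control library, by 0.28 (SE 0.0575, edgeR adjusted p = 8.43e-05) and 0.37 (SE 0.0438, edgeR adjusted p = 4.89e-09) on the log2 scale.

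AGO1 lies between them and did not pass the test. It was at 297, 286 and 286 CPM in control and at 310, 292 and 295 CPM in shMUC1 libraries, with overlap between the groups. Its log2 fold change was 0.05 (95% interval -0.02 to 0.11, edgeR adjusted p = 0.272), an interval that does not reach the falls of the other Argonautes. The log2 ratio to AGO1 differed between group means by -0.31 for AGO2, -0.41 for AGO3 and -0.33 for AGO4, and the groups did not overlap in any of these ratios (exact permutation p = 0.1).

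The AGO1 and AGO3 messages share annotated exon bases with transcripts on the opposite strand, 396 bases with AL139286.2 and 86 with AL138787.2. AGO2 shares 47 with AC067931.1 on its own strand.

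Levels were compared between genes as CPM per kilobase of annotated exon. In control cells the order was AGO2 (52.1 ± 0.936), DROSHA (29.8 ± 1.12), AGO1 (20.9 ± 0.46), XPO5 (16.1 ± 0.621), TNRC6A (10.2 ± 0.0821), AGO4 (7.52 ± 0.441), DICER1 (7.14 ± 0.00192), AGO3 (5.36 ± 0.174), TARBP2 (3.18 ± 0.132) and DGCR8 (3.13 ± 0.0997), each as mean ± SD with n = 3. TARBP2 and DGCR8 overlapped in range, and AGO4 and DICER1 differed by less than 1 SD of AGO4, so these neighbours were not told apart. In shMUC1 cells DICER1 was at 12.4 ± 0.11 (SD, n = 3) and moved from place 7 to place 5 of the 10, above TNRC6A at 8.22 ± 0.0469 (SD, n = 3). The order of the other 9 among themselves stayed as it was, although DROSHA (22.4 ± 0.408) and AGO1 (21.5 ± 0.706; SD, n = 3) now overlapped in range. Exon length was the union of all annotated exons, so a gene with a long alternative 3′ UTR that is not used, such as the 16755-base one of AGO3, would be understated.

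**Figure D3:**
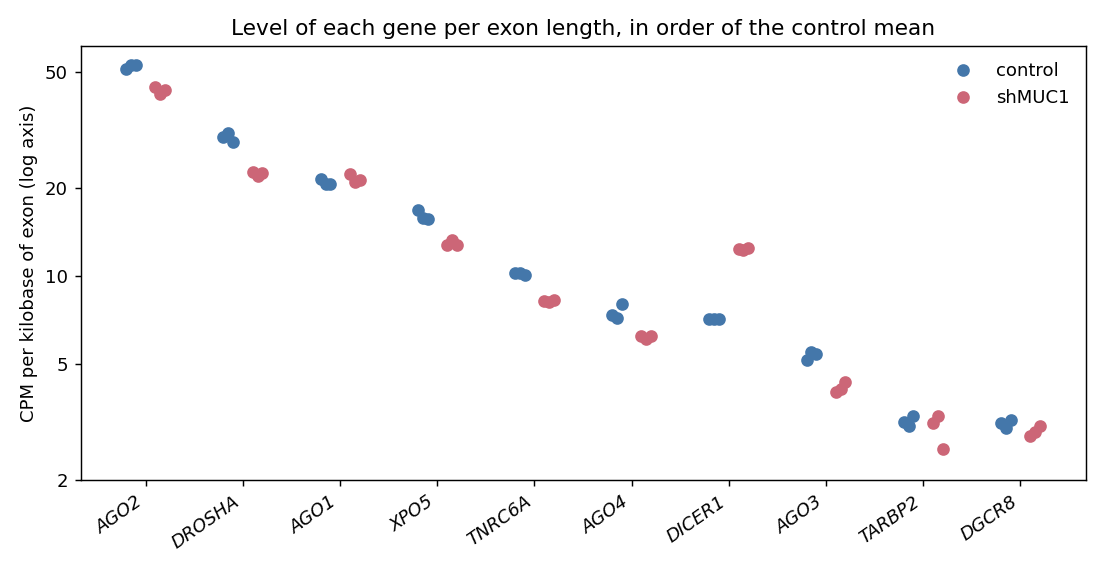
Points are single libraries, control (blue) and shMUC1 (red), with CPM per kilobase of annotated exon on a log axis and the 10 genes in the order of their control mean. AGO2 is the highest in both groups, and DICER1 goes from about the level of AGO4 to above TNRC6A.

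The make-up of the Argonaute messages shifted toward AGO1. On the per-kilobase scale, AGO2 made up 60.0%, 61.3% and 60.7% of the sum of the 4 in control and 57.7%, 57.3% and 57.7% in shMUC1 libraries. AGO1 made up 24.3% ± 0.761 in control and 28.7% ± 0.393 in shMUC1 cells (SD, n = 3 each). The summed level went from 85.8 ± 0.812 to 75.1 ± 1.98 CPM per kilobase (SD, n = 3 each). The groups did not overlap in these 3 measures (exact permutation p = 0.1). All 3 are built from the single genes above, so their tests add little to those. The AGO3 share went from 6.24% to 5.53% without overlap (exact permutation p = 0.1). The AGO4 share went from 8.75% to 8.23% with overlap (exact permutation p = 0.2).

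TNRC6A, the GW182 protein among the 10, links Argonaute to the deadenylation machinery. The gene lies at chr16:24610209-24827632 on the plus strand. It was at 132, 132 and 130 CPM in control and at 106, 106 and 107 CPM in shMUC1 libraries, and it fell by 0.31 on the log2 scale (SE 0.0393, edgeR adjusted p = 2.54e-08). Its paralogs moved apart. TNRC6B, at 143, 142 and 150 CPM in control and 173, 160 and 162 CPM in shMUC1 libraries, rose by 0.19 on the log2 scale (SE 0.0392, edgeR adjusted p = 0.000129). TNRC6C, at 27.4, 23.4 and 30.0 CPM in control and 18.2, 17.1 and 18.9 CPM in shMUC1 libraries, fell by 0.58 on the log2 scale (SE 0.088, edgeR adjusted p = 8.73e-07).

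In none of these 3 paralogs did the groups overlap. On the per-kilobase scale TNRC6A made up 51.3% ± 1.46 of their sum in control and 45.4% ± 0.925 in shMUC1 cells, and TNRC6B made up 36.5% ± 0.4 and 45.6% ± 1.01 (SD, n = 3 each). TNRC6B was below TNRC6A per kilobase in control cells (7.25 ± 0.206 against 10.2 ± 0.0821) and level with it in shMUC1 cells (8.25 ± 0.348 against 8.22 ± 0.0469; SD, n = 3). Lower CPM in bulk RNA can mean fewer cells with a transcript or less of it per cell, and these cannot be told apart.

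**Figure D4:**
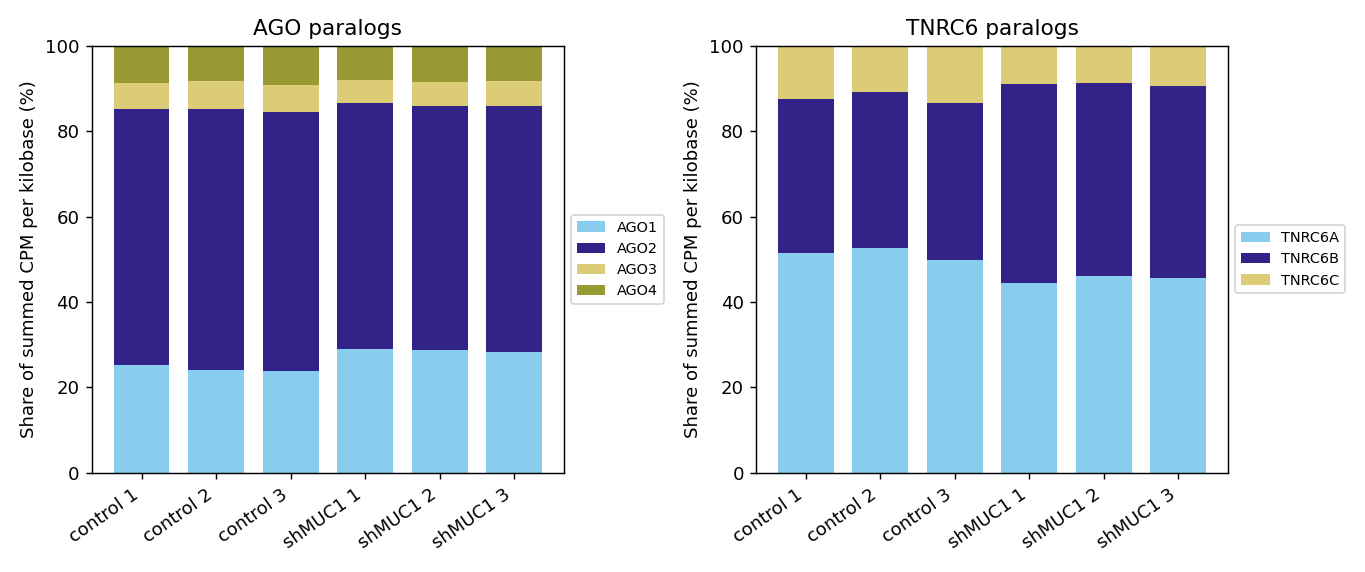
Stacked bars give, for each of the 6 libraries, the percentage of the summed CPM per kilobase taken by AGO1 to AGO4 (left) and by TNRC6A, TNRC6B and TNRC6C (right). In shMUC1 libraries the AGO1 and TNRC6B shares are larger, at 28.7% and 45.6% on average against 24.3% and 36.5% in control.

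The word ATCAGTA was looked up in the 3′ UTRs of the RNA interference genes because it had been picked on these same counts. It had been picked as a word for lower expression, so falls among genes that hold it are partly set by that choice. Its matches are given as a description, its relation to expression across all genes was not tested here, and the shRNA sequence was not used. Of the 10 genes, 3 held it on the message strand, against 11.6% of 13023 tested genes with an annotated 3′ UTR, but the UTRs of these genes are long. Stretches with the word in capitals are shown to place the matches, beside the one in the longest annotated 3′ UTR of MUC1 (GRCh38, plus strand except MUC1, which is on the minus strand).
TNRC6A, chr16:24825066-24825092: taaagccgaaATCAGTAactatgcata
AGO1, chr1:35925555-35925581: ataccaacagATCAGTAtgtgcaaata
AGO3 site 1, chr1:36058367-36058393: aactgagtttATCAGTAacattggatt
AGO3 site 2, chr1:36065733-36065759: gctacctgacATCAGTAcagcttgacc
AGO3 site 3, chr1:36071428-36071454: ggaggttgatATCAGTAtgttttgaaa
MUC1, chr1:155187762-155187788: acacagttcaATCAGTAtaaaacggaa

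TNRC6A and AGO3 held ATCAGTA and fell, and AGO1 held it and did not pass the test. DROSHA, XPO5, AGO2 and AGO4 fell without it. The part of the word in these changes was not tested. Among tested genes with a 3′ UTR within 20% of the length, 14.1% held the word for TNRC6A, 53.5% for AGO1 and 60.5% for AGO3. DICER1 did not hold it.

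To place these genes in the wider route, 96 other genes in 9 role lists were counted, of which 86 were tested. Of these, 19 rose and 28 fell, or 54.7%, close to the 48.7% of all tested genes, and their median log2 fold change was -0.0075.

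Among 13 cofactors of the microprocessor, 2 rose and 6 fell (median -0.06). DDX17, an RNA helicase of the complex, fell by 0.30 on the log2 scale, and ERH, a small partner of it, rose by 0.12. Among 5 nuclear export genes, 1 rose and 2 fell (median 0.0087). RAN, the GTPase that powers XPO5, fell by 0.25 and RANGAP1, which speeds GTP hydrolysis by RAN and so turns it off, rose by 0.12. The RANGAP1 and ERH calls were lost without single libraries, RANGAP1 without control replicate 1 (0.08, edgeR adjusted p = 0.16) or shMUC1 replicate 2 (0.11, edgeR adjusted p = 0.0683) and ERH without shMUC1 replicate 3 (0.09, edgeR adjusted p = 0.0741).

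Of 9 genes that assist DICER1 or edit and tail its substrates, 7 were tested, with 2 higher and 2 lower (median -0.09). PRKRA, a second RNA-binding partner of DICER1, was at 87.8, 80.0 and 77.6 CPM in control and 64.3, 63.2 and 61.6 CPM in shMUC1 libraries, and fell by 0.37 on the log2 scale (SE 0.0507, edgeR adjusted p = 9.6e-08). TENT2, a poly(A) polymerase that adds bases to microRNA ends, rose by 0.29. LIN28A and LIN28B, which block let-7 maturation, had mean counts of 4.17 and 1.67 over the 6 libraries and were not tested. They were named after their values were seen.

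Of 12 genes listed for the loading of Argonaute, mostly chaperones, none passed the test as higher and 5 passed as lower (median -0.08). TSN, which fell by 0.29 on the log2 scale, and TSNAX are in this list and are not chaperones. Groups did not overlap in 3 of the 12 as higher and in 6 as lower, against 28.1% and 26.8% of all tested genes. HSP90AB1, the constitutive cytosolic HSP90, fell by 0.37 on the log2 scale, from 1381 ± 28.7 to 1071 ± 11.5 CPM (SD, n = 3 each). Among 14 partners of Argonaute and GW182 proteins, TNRC6B and TNRC6C included, 13 were tested, with 4 higher and 4 lower (median 0.04). WTIP, an Argonaute-binding LIM protein, was the 1 gene of the wider list that fell by more than 2 times, with a log2 fold change of -1.28 (edgeR adjusted p = 4.07e-06) on a mean of 79.8 counts a library. It was named after its values were seen.

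The deadenylation list held the largest single falls with ample counts. Of its 13 genes 4 rose and 5 fell (median 0.0019). CNOT6, a deadenylase of the CCR4-NOT complex that TNRC6 proteins recruit, was at 381, 379 and 374 CPM in control and 216, 218 and 215 CPM in shMUC1 libraries. It fell by 0.80 on the log2 scale (SE 0.0321, edgeR adjusted p = 7.42e-22), with no overlap. CNOT7, the other type of deadenylase in the complex, was at 324, 307 and 313 CPM in control and 197, 190 and 194 CPM in shMUC1 libraries, and fell by 0.70 (SE 0.0341, edgeR adjusted p = 3.08e-19). It was named after its values were seen.

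CNOT9, a subunit that binds TNRC6 proteins, rose by 0.28 on the log2 scale, and the close paralogs CNOT6L and CNOT8 had log2 fold changes of 0.09 (edgeR adjusted p = 0.198) and -0.13 (edgeR adjusted p = 0.0357). Both were named after their values were seen. CNOT6 and CNOT7 each held ATCAGTA 1 time in the longest annotated 3′ UTR, as 24.7% and 29% of tested genes with UTRs of like length did, and CNOT9 held it as well. That of CNOT6 is shown because this gene had the largest fall in the list.
CNOT6, chr5:180576068-180576094: ccagtttataATCAGTAcattggaaag
Of 76 genes in the wider list with an annotated 3′ UTR, 9 held the word (11.8%). Of these, 4 fell (PRKRA, TNRC6C, CNOT6 and CNOT7) and 1 rose (CNOT9). Because the word was picked for lower expression on these counts, that split is no separate result. The split among all tested genes that hold the word was not counted. Among 11 decapping and decay genes, 2 rose and 1 fell (median 0.03), with DCP1A, a decapping activator, higher by 0.37 and LSM14A, a translational repressor, lower by 0.37 on the log2 scale.

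**Figure D5:**
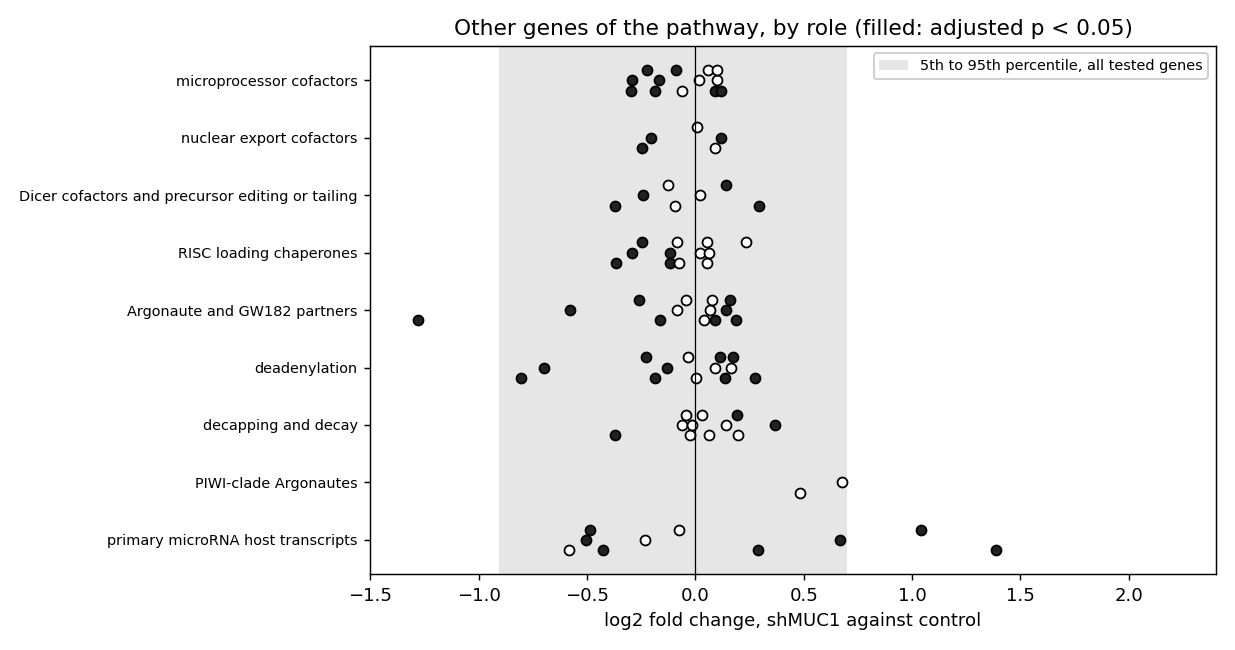
Each point is 1 of 86 tested genes of the wider route, by role (vertical) and log2 fold change of shMUC1 against control (horizontal), filled where the edgeR adjusted p was under 0.05; the grey band is the 5th to 95th percentile of all tested genes. Most points lie inside the band, on both sides of 0, and WTIP (-1.28) is the point farthest to the left.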

How the data were processed

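Polyadenylated RNA was sequenced from 3 control and 3 shMUC1 cultures of MDA-MB-436 cells, with libraries from a kit that keeps strand. The table the authors deposited holds unnormalized counts for each gene symbol and library. The submitters' processing notes name CASAVA 1.8.2, STAR 2.7.9a, featureCounts, DESeq2 1.24.0 and the build GRCh38.p7. The annotation release, strand setting and handling of read pairs are not given in the sources used here. Among values from 1 to 20 counts, between 68.8% and 70.5% were even, so halved counts were tried as well.

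Counts of all 37887 rows were tested with edgeR 4.0.16 under R 4.3.3 (quasi-likelihood fit, TMM, filterByExpr, group as the only term), two-sided, with Benjamini-Hochberg adjustment over 15355 genes. SE and 95% intervals came from its F statistic, and CPM used TMM-scaled totals. Ratios and shares were tested with exact permutation tests over libraries. The scripts were tested on simulated data. Gene positions, exon lengths and 3′ UTRs were from GENCODE release 29 (GRCh38), which may differ from the release used for counting, and microRNAs from RefSeq (GRCh38.p14). A 7-base word was searched on the message strand of the longest annotated 3′ UTR of each gene.

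The 10 genes, the lists, the tests and the alternatives were chosen with earlier results of these data known, and the lists were written from general knowledge. The genes named were the 10 and MUC1, TNRC6B and TNRC6C, and in each role list the largest rise and fall among genes at an adjusted p under 0.05 with a mean of at least 100 counts. Words and microRNAs were picked after values were seen. Replicates of a group differed by more than sampling noise, chi-square divided by its degrees of freedom being 2.79 to 5.55, a measure that also grows where each fragment adds 2 counts. The 95% intervals include the spread between libraries, whereas the counting errors given for DICER1 cover counting error only. Alternatives were scaling by DESeq2 size factors or by library totals only, testing every gene or those with a mean over 50 counts, the tests of limma-voom (limma 3.58.1) and DESeq2 1.42.0, a replicate block, halved counts, libraries drawn down to 18678307 counts, mitochondrially encoded genes left out, each library left out in turn, a fold change over 1.5 and shares without division by length.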

Additional observations from a re-analysis of the deposited data

How the results depend on the processing

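Across 16 alternatives for each of the 10 genes, 159 of 160 log2 fold changes had the same sign and the same call as in the report. The exception was TARBP2, which ranged from -0.147 to 0.0263 when single libraries were left out and turned to 0.0263 without shMUC1 replicate 3. The cause was not tested. DICER1 ranged from 0.77 to 0.80, DROSHA from -0.45 to -0.38 and AGO2 from -0.29 to -0.24, and MUC1 from -1.01 to -0.70. A fold change over 1.5 in place of 2 gave 1 gene higher, DICER1, by construction. In every alternative 1 of the 10 genes was higher and 6 were lower. In the wider list, 19 higher and 28 lower genes became 14 and 32 with library totals only and 14 and 33 with a mean of at least 50 counts. RANGAP1 also lost its call with library totals only (0.10, edgeR adjusted p = 0.0552). The difference in the AGO2 share, -3.11 percentage points per kilobase, was -2.98 in counts without division by length, and from -3.43 to -2.81 without one library.

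The labels share replicate numbers, but deviations from the group mean were not shared by libraries of the same number (correlations 0.0167, -0.0311 and -0.036). A fit with the replicate block called 3885 genes as higher and 3591 as lower, against 3866 and 3617 without it, and DICER1 and the 6 lower genes kept their calls. Depth limits TARBP2, DGCR8 and MUC1 most.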

Other observations

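Primary microRNA host transcripts, the long RNAs from which the microprocessor cuts hairpins, were counted as a list of 15, of which 10 were tested. Of these, 4 rose and 3 fell, or 70%, beside 48.7% of all tested genes, with a median log2 fold change of -0.15. MIRLET7BHG, host of let-7b, was at 14.0, 16.5 and 14.2 CPM in control and 9.23, 10.9 and 11.6 CPM in shMUC1 libraries, and fell by 0.50 on the log2 scale (SE 0.11, edgeR adjusted p = 0.000216). MIR31HG, a host transcript at the miR-31 locus, was at 3.60, 4.39 and 3.02 CPM in control and 6.37, 6.02 and 4.999 CPM in shMUC1 libraries, and rose by 0.67 (SE 0.172, edgeR adjusted p = 0.00136). In both genes the groups did not overlap. MIR22HG and MIR99AHG, named after their values were seen, were the 2 genes of the wider list that rose by more than 2 times, with log2 fold changes of 1.39 and 1.04 (edgeR adjusted p = 0.0118 and 0.0245) on means of 16.8 and 24.3 counts a library. The poly(A) level of a host transcript is not the level of its microRNA, which was not measured.

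The list of PIWI-clade Argonautes, which act mainly in the germline, had low counts, and its 4 genes were named after their values were seen. PIWIL1 and PIWIL3 had 0 counts in all 6 libraries, PIWIL2 had a mean of 0.394 CPM in control and 0.534 CPM in shMUC1 cells, and PIWIL4 had 1.33 and 2.11 CPM. Neither of the tested pair passed the test, with log2 fold changes of 0.48 (edgeR adjusted p = 0.457) and 0.68 (edgeR adjusted p = 0.0608).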
